A study of Homo sapiens with 42 samples.

Results

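The effect of AZD5153 on chromatin accessibility was compared between osimertinib-tolerant persister cells and untreated cells of PC9, a human lung adenocarcinoma line with an activating EGFR deletion, as the interaction of 2 responses measured by ATAC-seq. The persister response was the change from drug-tolerant persisters (DTP) to persisters that also received AZD5153. The untreated response was the change from DMSO controls to cells given AZD5153 alone, and it shares no library with the persister response. The comparison used 12 of the 42 libraries of the series, 3 in each of 4 groups. DMSO cells were kept without drug for 21 days and then given vehicle for 3 days. AZD5153 cells had the same drug-free period and then 150 nM AZD5153 for 3 days. DTP cells were held in 500 nM osimertinib for 24 days, and the cells of the last group, called DTP plus AZD5153 here, had 500 nM osimertinib for 21 days and then 150 nM AZD5153 for 3 days. No source used here states if osimertinib stayed on in those last 3 days. If it did not, the persister response and the interaction also hold 3 days without osimertinib, which cannot be told apart from the effect of AZD5153. All 4 groups come from a single established line, and persisters are the cells that remained after the drug, so selection of cells and change within cells cannot be told apart.

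Osimertinib is a covalent inhibitor of mutant EGFR, and persisters are the small fraction of cells that survive such a drug without a resistance mutation and grow slowly or not at all. AZD5153 is a bivalent inhibitor of the BET bromodomain proteins. BET proteins bind acetylated histones at promoters and enhancers and recruit the elongation kinase P-TEFb (CDK9 with a cyclin T). In ATAC-seq, a transposase inserts sequencing adapters into open DNA, and the number of reads at a region is taken as its accessibility. AP-1, a dimer of FOS and JUN proteins that acts downstream of EGFR and MAP kinase signalling, is a major binder of enhancers in epithelial cancer cells.

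Regions were sorted by how the responses related, each on the log2 scale of fold changes. A region was persister-only where the interaction and the persister response were called, the persister response was at least 2-fold, and the untreated response had an unadjusted p of at least 0.05 with a 95% interval within 2-fold in either direction. Untreated-only regions met the same terms with the responses exchanged, and opposite-sign regions were called in the interaction and in both responses with different signs. The following promoters are shown because their accessibility was lower with AZD5153 in persisters and not in untreated cells, and because each holds the letters of an AP-1 site (TGACTCA or its reverse complement TGAGTCA, in capitals). They were chosen after their values were seen, as the persister-only falls (ODAPH, SCEL, ECM1 and NDST1) and the opposite-sign falls (CD59 and KSR1) with the largest interactions among such promoters. Sequences are RefSeq windows of GRCh38.p14 from 250 bases before to 50 bases after an annotated start, written 5′ to 3′ on the strand of the gene: chr4:75555816-75556115 (plus) for ODAPH, chr13:77535456-77535755 (plus) for SCEL, chr1:150507859-150508158 (plus) for ECM1, chr5:150497529-150497828 (plus) for NDST1, chr11:33722678-33722977 (minus) for CD59 and chr17:27471714-27472013 (plus) for KSR1.
ODAPH: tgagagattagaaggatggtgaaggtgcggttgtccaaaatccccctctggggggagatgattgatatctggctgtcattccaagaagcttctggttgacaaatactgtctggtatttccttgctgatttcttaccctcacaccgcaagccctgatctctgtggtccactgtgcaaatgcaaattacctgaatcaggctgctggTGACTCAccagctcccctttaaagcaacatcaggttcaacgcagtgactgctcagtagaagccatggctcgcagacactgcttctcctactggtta
SCEL: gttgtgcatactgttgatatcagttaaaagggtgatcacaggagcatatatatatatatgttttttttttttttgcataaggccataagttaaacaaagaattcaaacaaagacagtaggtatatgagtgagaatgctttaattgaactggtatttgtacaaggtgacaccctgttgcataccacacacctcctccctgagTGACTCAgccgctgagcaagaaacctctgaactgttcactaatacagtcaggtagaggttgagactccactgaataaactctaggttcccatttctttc
ECM1: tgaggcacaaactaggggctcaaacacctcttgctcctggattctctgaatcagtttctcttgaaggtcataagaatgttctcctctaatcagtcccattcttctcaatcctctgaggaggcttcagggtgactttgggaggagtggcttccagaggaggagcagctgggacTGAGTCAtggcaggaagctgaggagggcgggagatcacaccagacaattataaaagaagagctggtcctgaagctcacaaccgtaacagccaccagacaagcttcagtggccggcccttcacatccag
NDST1: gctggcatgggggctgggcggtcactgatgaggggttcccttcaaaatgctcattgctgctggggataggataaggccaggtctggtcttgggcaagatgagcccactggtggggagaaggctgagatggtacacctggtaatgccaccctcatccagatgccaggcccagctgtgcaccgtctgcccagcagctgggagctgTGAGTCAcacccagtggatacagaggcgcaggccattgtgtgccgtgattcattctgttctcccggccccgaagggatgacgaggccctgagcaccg
CD59: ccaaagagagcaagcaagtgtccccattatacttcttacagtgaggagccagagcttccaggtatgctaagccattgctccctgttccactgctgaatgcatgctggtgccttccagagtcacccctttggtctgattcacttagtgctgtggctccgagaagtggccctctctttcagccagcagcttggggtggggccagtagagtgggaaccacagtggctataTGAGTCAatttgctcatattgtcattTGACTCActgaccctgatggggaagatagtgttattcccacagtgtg
KSR1: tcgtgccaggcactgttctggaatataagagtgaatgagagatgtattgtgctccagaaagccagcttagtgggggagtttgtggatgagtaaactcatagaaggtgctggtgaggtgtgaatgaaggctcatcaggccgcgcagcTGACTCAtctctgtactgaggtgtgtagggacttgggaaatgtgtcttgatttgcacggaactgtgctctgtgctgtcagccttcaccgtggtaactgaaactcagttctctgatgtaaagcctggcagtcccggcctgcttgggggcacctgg

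The PC9 libraries held 3989287 to 5193390 counts in 502962 regions of 502 bases, and 126506 regions passed the filter on low counts. Libraries of a group were nearly as close as counting noise allows: the variance ratio of the 12 within-group pairs was 0.9592 to 1.04, and 8 pairs, with all 3 of the AZD5153 group among them, showed no excess over counting error. The labels call them biological triplicates, but p-values from them measure mainly counting error, so counts of calls are repeated after adding up the 3 libraries of a group and taking the spread from the HCC2935 libraries (a biological coefficient of variation of 10.1%). Epithelial promoters were open in every library, with EPCAM at 21.3 to 34.7, KRT8 at 24.9 to 45.9 and CDH1 at 17.7 to 32.6 CPM (counts scaled to the library total), and 7 of 8 epithelial or lung genes had an annotated promoter region. The promoters of NKX2-1 and NAPSA were at 3.64 to 12.2 and 3.13 to 7.61 CPM, and SFTPB had no annotated region. Of 9 genes of other cell types, 5 had an annotated promoter region, and PTPRC, LYZ and COL1A2 were among those with none. COL1A1 reached 24.7 CPM. CD3E was at 1.18 to 11.4, PECAM1 at 1.2 to 8.14, PDGFRB at 0.639 to 8.14 and CDH5 at 2.97 CPM or more. All of these last ranges overlapped those of NKX2-1 and NAPSA, so promoter levels did not separate these lung genes from genes of other cell types. No long stretch of a chromosome moved as a block: the median interaction in 298 bins of 10 Mb lay between -0.21 and 0.26 on the log2 scale.

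AZD5153 changed accessibility in both states, and the responses overlapped only in part. In persisters 13555 regions rose (10.7% of those tested) and 14721 fell (11.6%). In untreated cells 14275 rose (11.3%) and 18406 fell (14.5%). Of the regions called in the persister response, 30.5% were also called with the same sign in untreated cells, and of those called in untreated cells, 26.4% were called with the same sign in persisters. Across all tested regions the responses had a Pearson r of 0.334, a description over regions that share libraries. The interaction, which tests whether the responses differ, was called at 17426 regions, of which 9258 were higher (7.32%) and 8168 lower (6.46%). A higher interaction means that the change with AZD5153 was more positive in persisters than in untreated cells. With libraries summed, 6124 regions were called (4.84%). The balance of directions depends on the scaling: with library size alone in place of TMM factors, 6945 were higher and 9891 lower in the interaction, and 18304 rose and 15489 fell in untreated cells, the median of all interactions being -0.0976. At the threshold, the last region inside had an interaction of 1.29 with an adjusted p of 0.049993 and the first outside 1.52 with 0.050013, on the log2 scale.

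The classes covered 1416 persister-only regions (1.12% of those tested), 2817 untreated-only regions (2.23%) and 1943 opposite-sign regions (1.54%). With libraries summed, the interaction was also called at 515, 1503 and 1469 of them, and with every term of the class taken from summed libraries the classes held 532, 1447 and 308 regions. A further 258 regions changed with the same sign but more in persisters, and 641 more in untreated cells. The remaining 10351 interaction calls (59.4%) met the terms of no class. At some a response was neither called nor held within the limits. At others, such as the MXD1 promoter (0.45 in persisters, -0.03 in untreated cells), the called response was under 2-fold while the other was held. Persister-only changes were mostly losses, with 1167 falls and 249 rises, and untreated-only changes too, with 1812 falls and 1005 rises. The opposite-sign regions were closer to even, with 1018 that rose in persisters and fell in untreated cells and 925 that did the reverse. With library size alone the falls stayed in the majority in the first 2 classes (1275 of 1477 and 1515 of 2814), and 702 of 1883 opposite-sign regions rose in persisters.

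**Figure D1:**
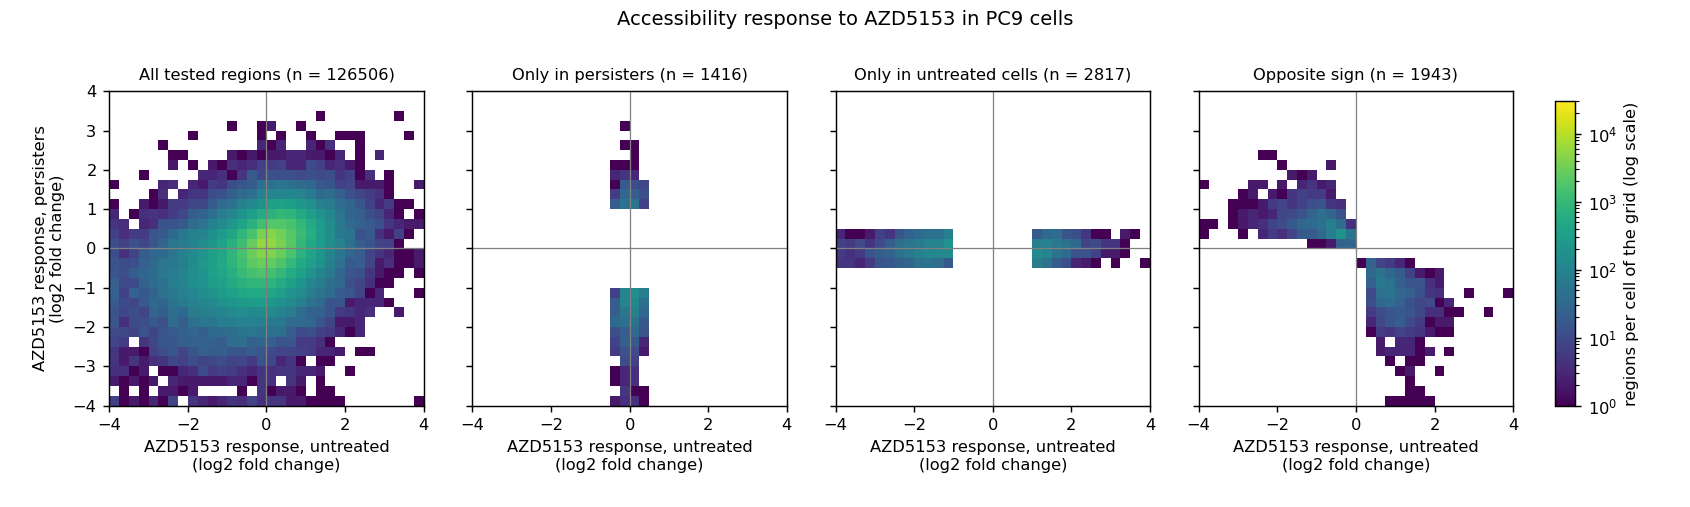
Regions by their AZD5153 response in untreated cells (x axis) and in persisters (y axis), both as log2 fold changes, in squares of 0.25 coloured by the number of regions on a log scale, with values past 4 drawn at the edge. The class panels follow from the class limits: the 1416 persister-only regions lie along the vertical axis, the 2817 untreated-only regions along the horizontal axis and the 1943 opposite-sign regions in the upper left and lower right.

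The levels behind the classes differed in where the starting point lay. At the persister-only falls, the median level was 2.34 log2 CPM in DMSO, 2.41 with AZD5153 alone and 2.17 in DTP, and 0.87 with osimertinib and AZD5153 in sequence. The rule fixes the nearness of the AZD5153 level to DMSO and the fall from DTP to the sequence of both, so these 4 medians are a description. At the untreated-only falls, the median was 2.66 in DMSO and 1.15 with AZD5153, against 2.45 in DTP and 2.41 in DTP plus AZD5153. The untreated-only rises went from 1.34 in DMSO to 2.69 with AZD5153, while persisters stood at 2.12 before and 2.07 after AZD5153. The median in persisters that had not seen AZD5153 was therefore above that of DMSO cells. This difference shares the DMSO libraries with the untreated response, so low DMSO counts raise both, and the values are given side by side only. The opposite-sign regions that rose in persisters had the highest levels of all classes, with a median of 3.92 in DMSO, 3.13 with AZD5153, 3.68 in DTP and 4.22 in DTP plus AZD5153. This class asks for calls but for no 2-fold change, and small changes are called more easily at high counts. The part this has in the levels was not tested.

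**Figure D2:**
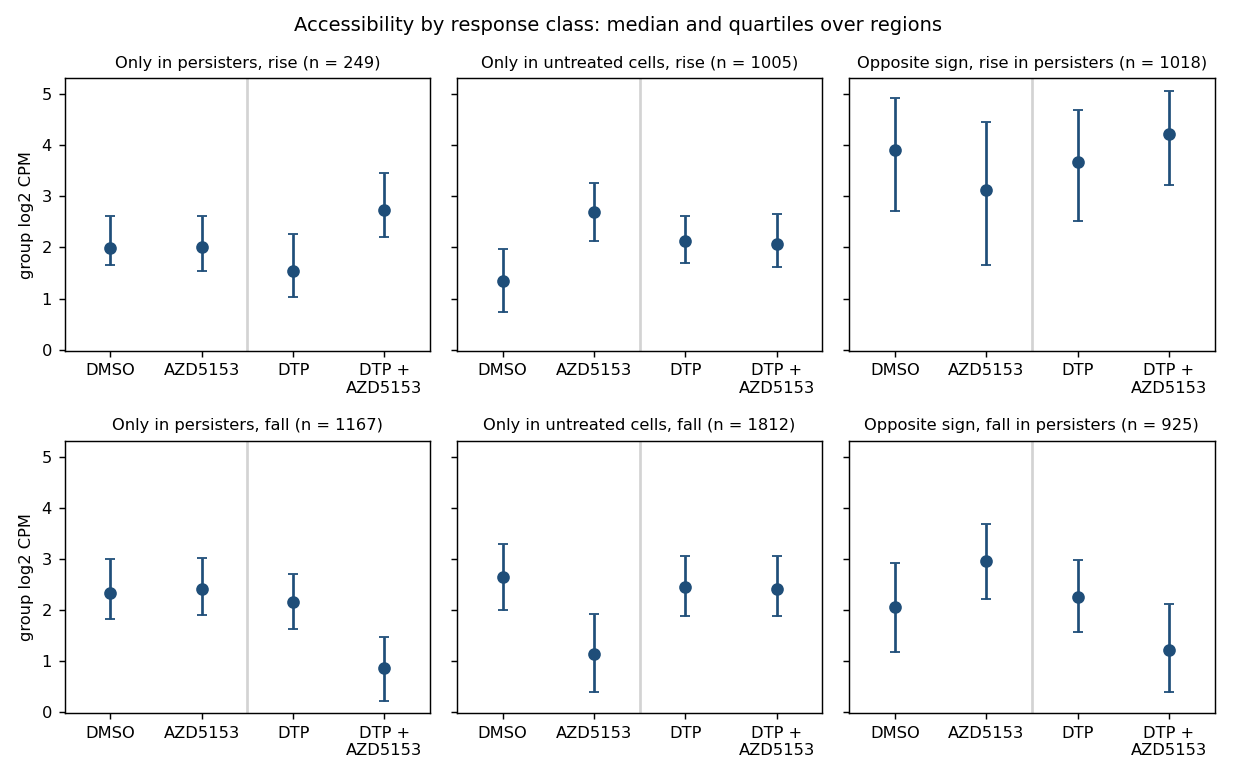
Median (point) and quartiles (bars) over regions of the group level in log2 CPM, for each class and direction in the 4 groups, with untreated cells left and persisters right of the grey line. The persister-only falls stay between 2.17 and 2.41 in the first 3 groups and lie at 0.87 in DTP plus AZD5153.

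By annotation class, the regions whose response depended on the state lay away from promoters more often than tested regions did. Annotations were deposited for 69565 of the tested regions, and of these 51.5% were promoters, 23.9% introns and 19% distal intergenic. Among annotated persister-only falls 27.6% were promoters and 39.7% introns. The untreated-only falls were alike, with 25.8% promoters and 40.2% introns, as were the untreated-only rises with 27.0% promoters and 37.8% introns, and the opposite-sign falls in persisters with 26.2% and 44.6%. The persister-only rises (40.5% promoters) and the opposite-sign rises in persisters (43.1%) were nearer to the share in all annotated regions. The 2-fold limit of the first 2 classes removes regions with many counts and small changes, and the part this has in the shares was not tested. Distal intergenic regions made up 20.4% to 27.9% of each class and direction. Each region carries the symbol of the nearest annotated gene, which names a place and not a target. An intron or exon label need not refer to a transcript of that gene.

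Among the persister-only falls, the 4 loci with the largest interactions lay near HHIPL2, ITPR3, LINC-PINT and CDK6-AS1. The region 6119 bases before the start of ITPR3, which encodes an inositol trisphosphate receptor that releases calcium from the endoplasmic reticulum (chr6:33613745-33614246, distal intergenic), had 7.37, 5.88 and 6.55 CPM in DMSO, 6.72, 5.57 and 5.27 with AZD5153, 9.93, 7.45 and 8.03 in DTP, and 0.392, 1.06 and 0.857 in DTP plus AZD5153. The last group lay below the 9 other libraries, and the AZD5153 and DMSO values overlapped. The persister response was -3.44 ± 0.33 on the log2 scale (SE; adjusted p = 2.78e-21) and the untreated response -0.16 with a 95% interval of -0.58 to 0.25. The interaction was -3.28 ± 0.41 (adjusted p = 2.64e-12, and 5.34e-07 with libraries summed). An intronic region 78445 bases before an annotated start of LINC-PINT, a long non-coding RNA gene (chr7:131188621-131189122), also fell in persisters. DTP libraries had 5.84, 6.62 and 5.22 CPM and DTP plus AZD5153 libraries 1.18, 0.213 and 0.643, against 6.21 to 8.11 in the 6 untreated libraries. The interaction was -2.93 ± 0.43 (adjusted p = 3.52e-09). In an intron of CDK6-AS1, an antisense transcript at the cell cycle kinase gene CDK6 (chr7:92904216-92904717), the level fell from 6.42, 5.79 and 3.01 CPM to 0.392, 0.852 and 1.07, and the untreated groups overlapped at 3.77 to 5.85. The region 3267 bases from the start of HHIPL2 (chr1:222521471-222521972, distal intergenic) had 47 counts over the DTP libraries and 3 over DTP plus AZD5153. The ratio of its CPM was 15.2 with a counting interval of 4.88 to 76.1, while the DMSO and AZD5153 libraries held 81 and 71 counts. At these 4 loci the DTP and DTP plus AZD5153 libraries did not overlap, which the rule for naming them required.

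Promoters within 1 kb of a start followed the same pattern, and the largest persister-only falls there were at VAC14-AS1 and POR. POR, the reductase that passes electrons to the cytochrome P450 enzymes, had 4.48, 4.76 and 4.02 CPM in DTP and 0.979, 1.06 and 0.429 in DTP plus AZD5153 at chr7:75945279-75945780. The DMSO values were 4.32, 4.06 and 5.75 and the AZD5153 values 5.19, 4.27 and 3.76. The interaction was -2.27 ± 0.46 (adjusted p = 5.26e-05). At VAC14-AS1 (chr16:70760637-70761138), 3.11, 2.48 and 2.21 CPM in DTP fell to 0.196, 0.426 and 0.643. Here DTP already lay below DMSO (6.36, 8.52 and 7.74), so the level after AZD5153 in persisters was the lowest of the 4 groups at both promoters.

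Of the promoters whose sequences are printed above, ODAPH, SCEL, ECM1 and NDST1 were persister-only falls, and KSR1 and CD59 were opposite-sign regions. ODAPH, which encodes a phosphoprotein of enamel formation, had 7.59, 6.83 and 7.83 CPM in DTP and 3.72, 1.49 and 2.36 in DTP plus AZD5153, and DMSO (10.4, 10.1 and 8.14) and AZD5153 (9.8, 9.1 and 9.41) overlapped. Its interaction was -1.52 ± 0.31 (adjusted p = 4.69e-05). SCEL encodes sciellin, a precursor of the cornified envelope of squamous epithelia, and ECM1 a secreted matrix protein. SCEL had 5.45, 6.83 and 3.61 CPM in DTP and 2.55, 1.06 and 3.0 in DTP plus AZD5153, with an interaction of -1.51 ± 0.35 (adjusted p = 0.000397). ECM1 had 4.67, 4.55 and 5.02 CPM against a mean of 2.08 ± 0.432 (SD, n = 3) in DTP plus AZD5153, with an interaction of -1.35 ± 0.38 (adjusted p = 0.00588), a call that was lost with libraries summed (adjusted p = 0.0865). NDST1 encodes an enzyme that modifies heparan sulfate. Its promoter was at 22.6, 22.7 and 23.8 CPM in DMSO, 26.3, 26.0 and 26.2 with AZD5153, 5.84, 4.97 and 5.62 in DTP and 3.33, 2.13 and 1.93 in DTP plus AZD5153, so persisters lay below untreated cells before AZD5153 and lower still after it. KSR1, a scaffold that holds RAF, MEK and ERK together, moved in opposite directions: its promoter rose from 16.3, 16.0 and 12.1 to 24.4, 22.7 and 25.6 CPM in untreated cells and fell from 12.3, 11.2 and 10.2 to 6.86, 7.67 and 6.22 in persisters, an interaction of -1.42 ± 0.22 (adjusted p = 1.27e-08).

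AP-1 letters were found more often in the promoters with a lower interaction than in tested promoters in general. Of 10622 tested promoter regions that overlapped a RefSeq window with its symbol, 3.87% held either spelling of the site, which covers both strands. None of the motifs searched contains another. The share was 3.44% of the 1423 promoters with a higher interaction and 16.2% of the 247 with a lower one. Among the 24 persister-only falls with a window, 10 held the letters (41.7%), as did 4 of the 12 opposite-sign falls in persisters. AP-1 letters were also in 10.5% of the 541 promoters that fell in the persister response, and in 7.43% of the 781 that rose in untreated cells. The promoters with a lower interaction were lower in GC than others (a median of 63.3% against 67.0%), and AP-1 letters are commoner in such sequence. Among windows under 55% GC the letters were in 11.6% of all tested promoters and in 39.4% of the 71 with a lower interaction, and among windows of 55% or more in 2.72% and 6.82% of 176. GC-box letters (GGGCGG or its reverse complement), which SP and KLF factors bind, went the other way: they were in 73.6% of tested promoters, 80.0% of those with a higher interaction and 62.3% of those with a lower one. TEAD letters (GGAATG or its reverse complement) were in 10.7%, 10.6% and 15%, ETS letters (CCGGAAG or its reverse complement) in 17%, 19% and 8.91%, and the E-box CACGTG in 9.43%, 9.77% and 6.07%. The windows cover few of the members, since most lie away from promoters.

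**Figure D3:**
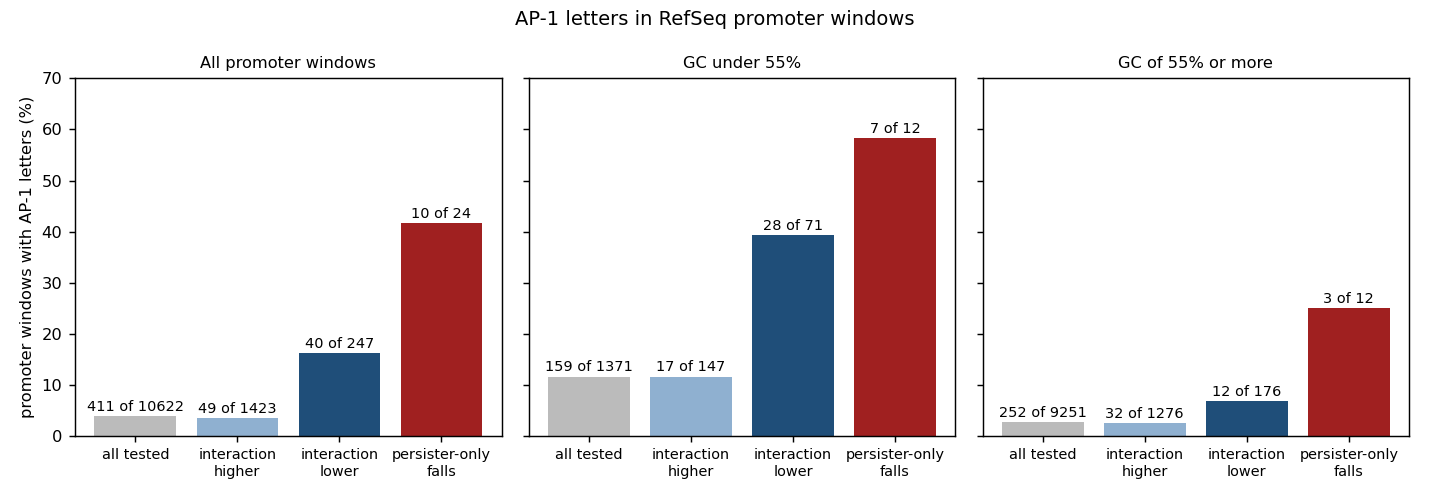
Share of RefSeq promoter windows that hold AP-1 letters (y axis, percent), for all tested promoters, those with the interaction called higher or lower, and persister-only falls, over all windows and split at 55% GC. Numbers over the bars give windows with the letters of all windows, and the lower-interaction bar stands above that of all tested promoters in both GC strata (28 of 71 and 12 of 176).

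Persister-only rises were fewer and smaller. KCNK5 encodes an acid-sensitive potassium channel, and its intronic region (chr6:39204907-39205408) rose from 5.06, 2.28 and 2.81 CPM in DTP to 13.7, 11.5 and 12 CPM, while DMSO (2.03, 2.23 and 2.98) and AZD5153 (1.92, 2.23 and 2.26) overlapped. The interaction was 2.05 ± 0.42 (adjusted p = 4.8e-05). An intronic region 20799 bases before an annotated start of SPOCK2, a secreted proteoglycan gene (chr10:72109831-72110332), had 1.95, 2.48 and 2.81 CPM in DTP. It had 10.6, 7.88 and 8.79 CPM in DTP plus AZD5153 and 2.04 to 2.82 in the 6 untreated libraries, so only DTP plus AZD5153 stood apart. In an intron of LINC01607 (chr8:79799426-79799927) DTP had 1.75, 1.45 and 0.602 CPM, below the 2.38 to 5.07 of untreated libraries, and DTP plus AZD5153 had 7.84, 8.09 and 7.5. The region 8229 bases before UAP1, which makes the sugar donor UDP-N-acetylglucosamine (chr1:162552776-162553277), had an interaction of 1.93 ± 0.41 (adjusted p = 0.000111). Among promoters, LINC01991 and ADGRB2, an adhesion G protein-coupled receptor gene, led with interactions of 1.75 ± 0.35 and 1.42 ± 0.26. The gene with the most persister-only rises was TXNRD1, the cytosolic thioredoxin reductase and a target of the oxidative stress factor NRF2, with 4 of its 32 tested regions between 1.16 and 2.02 in the persister response over 67.5 kb. With libraries summed, 2 of the 4 were still called.

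Several genes had more than 1 persister-only fall. All 3 tested regions of GDPD4, a phosphodiesterase family gene, fell by 1.13 to 1.88 on the log2 scale across 21.4 kb, and all 3 were called with libraries summed. NAV2, a neuron navigator gene, had 3 of 32 regions between -1.93 and -1.15, spread over 342 kb, also called when summed. Both regions of MIR4265 were in the class, 1 of them called when summed.

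The untreated-only falls included regions that lost nearly all of their counts. TCF7 encodes a transcription factor of the Wnt pathway, and its region 1340 bases from the start (chr5:134144132-134144633, promoter) had 2.8, 3.65 and 2.98 CPM in DMSO and 0.192, 0.371 and 0 with AZD5153, against 6.03, 5.17 and 5.82 in DTP and 7.44, 6.6 and 7.93 in DTP plus AZD5153. Only 3 counts remained over the AZD5153 libraries, and the ratio of DMSO to AZD5153 was 16.8 with a counting interval of 5.38 to 84.5. The distal intergenic region near LINC00410 (chr13:90838962-90839463) also kept 3 counts, with a ratio of 23.3 (7.59 to 116), while DTP and DTP plus AZD5153 overlapped at 4.48 to 6.41 and 4.93 to 7.44 CPM. In an intron of MIR4300HG (chr11:82680123-82680624) the level fell from 11.7, 9.13 and 7.94 CPM to 0.576, 0.186 and 0.941, and persisters had 10.9, 11.8 and 11.2 before and 12.7, 12.6 and 11.4 after AZD5153. Its interaction was 4.11 ± 0.38 (adjusted p = 3.61e-22). VIT, the gene of the matrix protein vitrin, followed at an intron with 4.06 ± 0.46 (chr2:36731918-36732419). The promoters with the largest untreated-only falls were INPP5K, an inositol phosphatase gene, with 3.69 ± 0.37 (chr17:1495213-1495714), and SLC7A8, an amino acid transporter gene, with 3.57 ± 0.36 (chr14:23129869-23130370). SLC7A8 had 7.88, 10.5 and 8.33 CPM in DMSO, 0.576, 1.49 and 0.753 with AZD5153, 6.23, 8.28 and 7.03 in DTP and 9.6, 9.37 and 8.36 in DTP plus AZD5153. MGAT3, which encodes the enzyme that adds a bisecting sugar to N-glycans, had 4 such falls among 13 tested regions, of which 2 were called with libraries summed.

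BCL2L1 and EGFR, the gene of osimertinib's target, were among them. At the promoter of BCL2L1, which encodes the anti-apoptotic protein BCL-XL (chr20:31719223-31719724), DMSO libraries had 30.8, 32.3 and 29.6 CPM and AZD5153 libraries 7.68, 8.91 and 9.22. Persisters had 28.4, 29.4 and 26.3 CPM, and 31.0, 29.4 and 28.9 after AZD5153, so only the cells given AZD5153 alone stood below the rest. The untreated response was -1.84 ± 0.13, the persister response 0.09 with an interval of -0.1 to 0.28, and the interaction 1.93 ± 0.16 (adjusted p = 8.34e-26, and 6.12e-06 with libraries summed). It was the region with the smallest interaction p among the 80 of a list of 16 BCL2 family and apoptosis genes. In that list 3 regions (3.75%) had a higher and 8 (10.0%) a lower interaction, beside 10.8% and 8.1% of all annotated regions. At a region of EGFR annotated to a 3′ UTR (chr7:55209314-55209815), DMSO had 12.2, 7.51 and 7.54 CPM and AZD5153 had 0, 0.928 and 0.564, against 5.45, 7.86 and 7.43 in DTP and 4.7, 6.81 and 6.43 in DTP plus AZD5153. The interaction was 3.86 ± 0.44 (adjusted p = 6.98e-15). The promoter of SFTPD, a surfactant protein of alveolar cells (chr10:79947903-79948404), fell from 5.59, 11.4 and 5.95 to 1.54, 1.67 and 0.941 CPM in untreated cells and had 2.73 to 5.59 in DTP and 3.22 to 3.62 in DTP plus AZD5153.

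At the largest untreated-only rises, DTP libraries lay above DMSO before AZD5153. The naming rule favours this, since it asks for a mean level above the median and the class holds the persister response near 0. The order of the groups is therefore a description. The distal intergenic region near CDK8, a kinase of the Mediator complex (chr13:26459271-26459772), rose from 0.254, 1.01 and 1.59 CPM in DMSO to 9.22, 8.35 and 9.41 with AZD5153, and had 8.18, 9.52 and 10.0 in DTP and 11.4, 10.6 and 7.29 in DTP plus AZD5153. The AZD5153, DTP and DTP plus AZD5153 libraries overlapped and all lay above DMSO. An intron of LINC00667 (chr18:5253855-5254356) showed the same order, with 0.254, 0.203 and 0.595 CPM in DMSO and 3.53 to 6.83 in the 9 other libraries. BTBD11 had an interaction of -3.0 ± 0.53 at an intron (chr12:107359306-107359807), and the promoter of FBXO42, an F-box gene, -2.77 ± 0.39 (chr1:16254557-16255058). CD59 encodes the membrane protein that blocks the complement attack complex. Its promoter region 270 bases before the start (chr11:33723222-33723723) rose from 1.53, 2.43 and 2.78 CPM to 17.3, 17.3 and 16.4 in untreated cells, and had 6.23, 6.83 and 9.84 in DTP and 8.03, 6.6 and 6.43 in DTP plus AZD5153. The interaction was -2.98 ± 0.3 (adjusted p = 1.67e-18). The neighbouring CD59 region, which covers the window printed above (chr11:33722508-33723009), was an opposite-sign region: it rose from 4.58, 3.85 and 4.96 to 9.61, 8.73 and 8.84 CPM in untreated cells and fell from 4.09, 3.72 and 2.81 to a mean of 1.15 ± 0.708 (SD, n = 3) in persisters. BCAR3, an adaptor gene linked to antiestrogen resistance, had the most untreated-only rises, 3 of 34 regions, of which 2 were called with libraries summed.

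**Figure D4:**
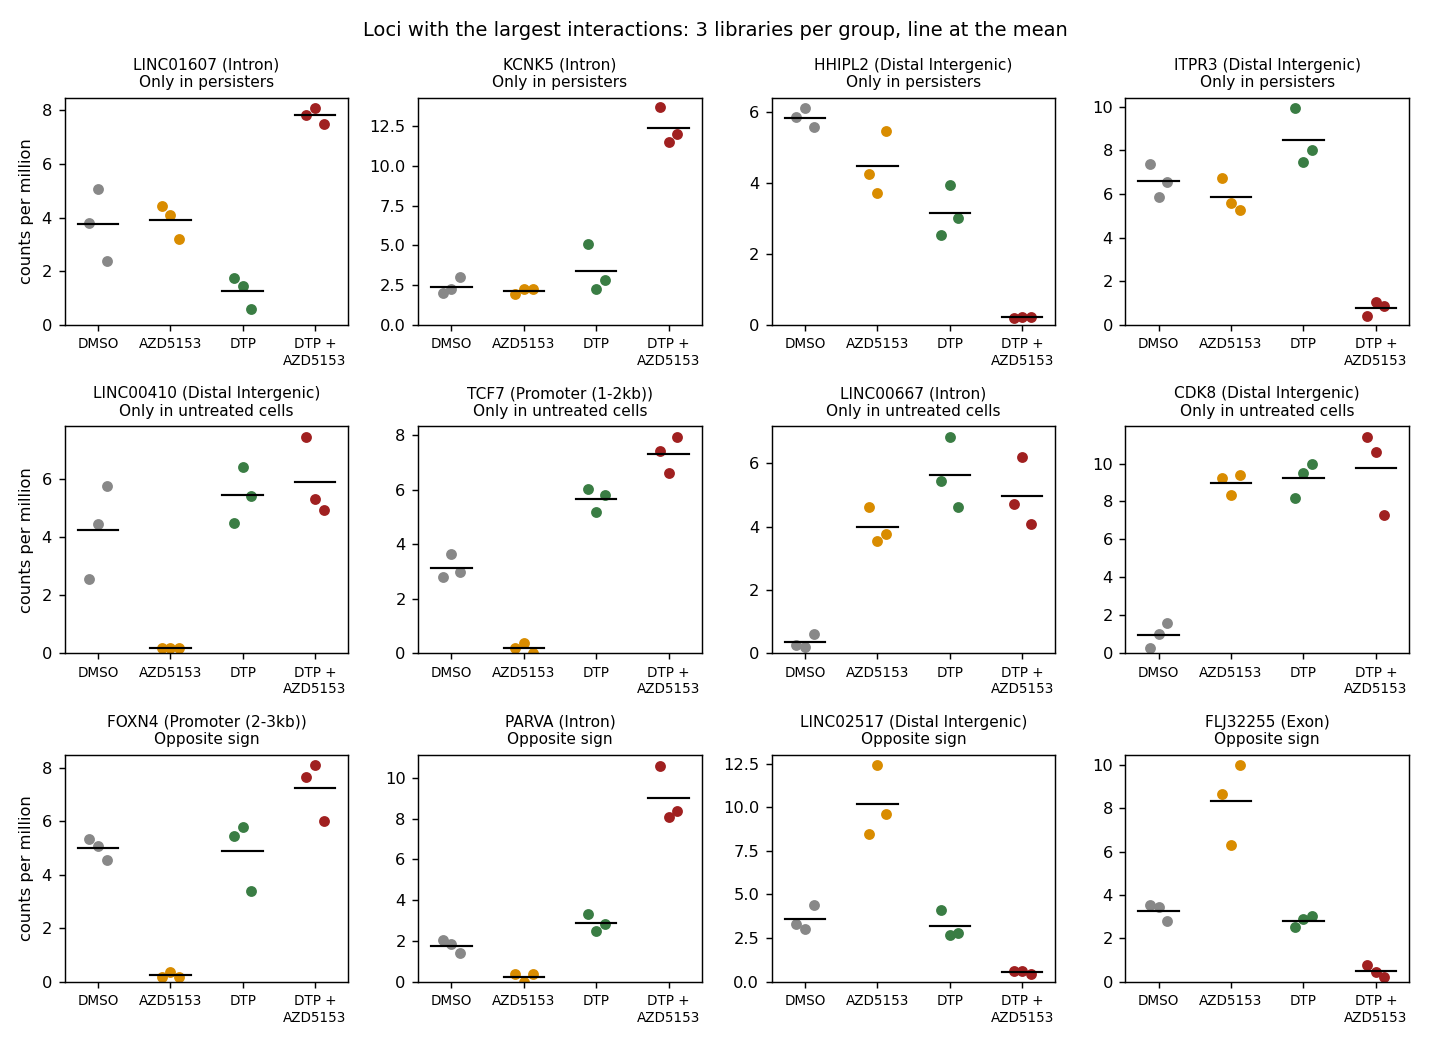
CPM in each of the 3 libraries of a group (points) and their mean (line) for 12 loci, the 2 with the largest interactions in each class and direction, each panel with its own scale from 0. In the ITPR3 panel only DTP plus AZD5153 lies near 0, in the TCF7 panel only AZD5153, and in the CDK8 panel only DMSO.

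Among the named opposite-sign loci, the largest interactions in each direction lay near FOXN4 and LINC02517. FOXN4 is a forkhead transcription factor gene, and its region 2441 bases before the start (chr12:109311725-109312226, promoter) fell from 5.34, 5.07 and 4.56 CPM to 0.192, 0.371 and 0.188 in untreated cells, while persisters went from 5.45, 5.79 and 3.41 to 7.64, 8.09 and 6.0. The rise in persisters was small (0.57 ± 0.22, adjusted p = 0.0419) beside the interaction of 4.74 ± 0.52 (adjusted p = 8.6e-16). In an intron of PARVA, a focal adhesion protein gene (chr11:12516658-12517159), both parts were larger: 2.03, 1.83 and 1.39 CPM fell to 0.384, 0 and 0.376, and 3.31, 2.48 and 2.81 rose to 10.6, 8.09 and 8.36. CALML5, a calmodulin-like gene of keratinocytes, had a distal region (chr10:5493588-5494089) where either drug alone gave low values, 1.15, 1.67 and 1.88 with AZD5153 and 0.973, 1.66 and 1.0 CPM in DTP, and the sequence of both gave 5.09, 5.11 and 7.5, overlapping the DMSO values of 4.58, 5.88 and 8.33. Its interaction was 4.27 ± 0.44 (adjusted p = 1.74e-18). The distal region near RNF165, a ubiquitin ligase gene, had the same interaction of 4.27 ± 0.41. Among promoters KLF6, a zinc finger transcription factor gene, had an interaction of 2.98 ± 0.43 (chr10:3783878-3784379). LINC01213 had 2.74 ± 0.26 (chr3:150238289-150238790). EHF, an ETS factor of epithelial cells, had 3 of 13 regions that rose in persisters and fell in untreated cells, and GRAMD2A and MCF2L had 4 each. With libraries summed, 2 of the EHF regions, 3 of GRAMD2A and all 4 of MCF2L were called.

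In the other direction, MAEA, a subunit of an E3 ubiquitin ligase complex, had the locus with the most counts of the 4 named (chr4:1337564-1338065, exon). It rose from 10.7, 8.52 and 9.53 to 41.1, 45.3 and 46.3 CPM in untreated cells and fell from 8.18, 8.9 and 5.82 to 3.92, 1.28 and 2.36 in persisters. The untreated response was 2.22 ± 0.12, the persister response -1.57 ± 0.25 and the interaction -3.78 ± 0.28 (adjusted p = 2.44e-34, and 4.97e-15 with libraries summed). Near LINC02517 (chr4:8336341-8336842, distal intergenic) 3.31, 3.04 and 4.37 CPM rose to 8.45, 12.4 and 9.59, and 4.09, 2.69 and 2.81 fell to 0.588, 0.639 and 0.429. An exon of FLJ32255 (chr5:42985341-42985842) and an intron of SCGN, a calcium-binding protein gene (chr6:25660444-25660945), had interactions of -3.83 ± 0.53 and -3.81 ± 0.53. The promoters with the largest values were KRTAP4-6, a keratin-associated protein gene, at -3.05 ± 0.33, and TMIGD3 at -2.95 ± 0.5. ERGIC1, a protein of transport between endoplasmic reticulum and Golgi, had 4 of 21 regions in this set, and all 4 were called with libraries summed.

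Promoters of the genes that AZD5153 acts on, or that are commonly read after BET inhibition, showed small interactions. HEXIM1, an inhibitor of P-TEFb whose expression is a common marker of BET inhibition, had a promoter region (chr17:45148058-45148559) that rose in persisters from 32.1, 29.6 and 30.7 to 37.2, 36.6 and 36.7 CPM (0.26 ± 0.091, adjusted p = 0.0278). In untreated cells it had 28.2, 26.6 and 27.4 in DMSO and 29.6, 27.3 and 26.3 with AZD5153, and the interaction of 0.24 was not called (adjusted p = 0.27, 95% interval -0.03 to 0.5). The MYC promoter had an interaction of 0.15 with an interval of -0.13 to 0.44. HEXIM2 (0.46 ± 0.11) and LARP7 (0.47 ± 0.17), both parts of the complex that holds P-TEFb inactive, were called higher at their promoters, but not with libraries summed (adjusted p = 0.504 and 0.54). Promoters of BRD3, CCNT1, CCNT2, CDK9 and MEPCE were not called, with interactions between -0.2 and 0.44.

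Gene lists are described by their counts against all annotated regions, where the interaction was higher at 10.8% and lower at 8.1%, the persister response at 15.7% and 13.6%, and the untreated response at 14.4% and 18.0%. Regions of interferon genes that changed in persisters all rose: 16 of 41 rose (39.0%) and 0 fell, against 6 that rose and 5 that fell in untreated cells, yet the interaction was higher at 5 and lower at 4. The counts in persisters were 13 to 16 rises and 0 falls under every scaling tried. Zinc finger genes of chromosome 19 had 53 of 454 regions with a higher interaction (11.7%) and 16 with a lower one (3.52%), which became 27 and 21 with library size alone and 22 and 18 with loess offsets. Histone cluster genes had 10 and 2 of 130, 5 and 3 with library size alone and 5 and 1 with loess offsets. Both lists are mostly promoters, and over all annotated promoters the shares were 9.56% and 5.23%. Regions of AP-1 subunit genes rose in persisters at 34 of 129 (26.4%) and fell at 19, a balance that was 20 to 21 with loess offsets, and the interaction was higher at 16 and lower at 10, or 10 and 12 with loess offsets. Of 232 regions of EGFR and MAP kinase feedback genes, 51 fell (22%) and 23 rose (9.91%) in persisters, and 57 fell (24.6%) and 31 rose (13.4%) in untreated cells. The interaction was higher at 22 of them and lower at 27. Regions of BET and P-TEFb genes had a higher interaction at 7 of 37 and a lower one at 3. For the MYC network the counts were 5 and 3 of 63 (1 and 4 with loess offsets), for YAP and TEAD genes 20 and 21 of 170, for cell cycle genes 5 and 7 of 94, for epithelial to mesenchymal transition genes 6 and 9 of 81, for alveolar lineage genes 6 and 6 of 47 and for inflammatory genes 7 and 10 of 66. Among the YAP and TEAD genes, an intron of CRIM1 (chr2:36377038-36377539) fell in both states, from 32.8, 33.5 and 30.8 to 23.6, 26.5 and 23.3 CPM in untreated cells and from 14.0, 12.8 and 11.2 to a mean of 2.01 ± 0.121 (SD, n = 3) in persisters, an interaction of -2.25 ± 0.26 (adjusted p = 3.24e-14).

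Persisters of other lines gave a reading of the classes in libraries that played no part in choosing them. For the single named loci this holds only for H1975, since their choice used the spread of the HCC2935 libraries. HCC2935 and H1975 are further EGFR-mutant lung cancer lines of the series, and regions of the tables were matched by an overlap of at least 50% in both. In HCC2935, which has no group given AZD5153 alone here, 4.89% of 83162 matched regions fell in the persister response and 3.26% rose. Of 1094 matched PC9 untreated-only falls, 316 fell in HCC2935 persisters (28.9%) and 5 rose, and 83.1% had a negative log2 fold change, against 40.2% of all matched regions. Part of the regions without a response to AZD5153 in PC9 persisters thus had one in HCC2935 persisters. The share was 16.8% for the 7643 other matched regions that fell in untreated PC9 cells. Here and below, the other regions had to be called but not to change 2-fold, as the persister-only and untreated-only classes require. These shares are therefore set side by side at unlike thresholds. Of 911 persister-only falls, 105 fell in HCC2935 persisters (11.5%) and 9 rose. That was below the 16.9% of the 6586 other matched regions that fell in PC9 persisters, a difference that was not tested. The opposite-sign regions that rose in PC9 persisters went the other way in HCC2935, where 103 of 760 fell (13.6%) and 8 rose, while those that fell in PC9 persisters gave 31 falls and 25 rises of 721. In H1975 persisters 8.98% of 91072 matched regions fell and 17.2% rose. There 220 of 870 untreated-only falls fell (25.3%) and 59 rose, beside falls at 21.5% of the 8165 other matched regions that fell in untreated PC9 cells. Of 1021 persister-only falls, 175 fell (17.1%) and 113 rose, beside falls at 23.5% of the 7216 other matched regions that fell in PC9 persisters. Opposite-sign regions that rose in PC9 persisters rose at 260 of 717 (36.3%) and fell at 59, beside rises at 40.2% of the 6416 other matched regions that rose there. Those that fell in PC9 persisters went against the PC9 direction more often than with it, with 174 rises (20.9%) and 88 falls (10.6%) of 834. None of these differences between shares was tested. In H1975 the untreated response is not read here, because its median in bins of 10 Mb ran from -1.39 to 1.55. Single loci varied: ITPR3 fell in persisters of both lines (-0.89 in H1975, adjusted p = 0.00685, and -1.04 in HCC2935, adjusted p = 0.00989), HHIPL2 in HCC2935 (-1.2, adjusted p = 0.00406), and MAEA rose in both (0.89 and 0.5, adjusted p = 8.04e-13 and 0.0296), against its fall in PC9 persisters. Called changes against the PC9 direction were also seen for UAP1 in HCC2935 (-1.0, adjusted p = 0.0476), RNF165 in HCC2935 (-1.0, adjusted p = 0.00207), CDK6-AS1 in H1975 (0.49, adjusted p = 0.00236) and the KRTAP4-6 promoter in H1975 (0.5, adjusted p = 2.61e-06). Promoters called with the PC9 direction in H1975 were POR (-0.52), ADGRB2 (0.62), KLF6 (1.18) and LINC01213 (0.5). The untreated-only locus CD59 had a called rise in persisters of both lines (0.8 in H1975 and 0.84 in HCC2935), and BTBD11 in H1975 (1.1).

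**Figure D5:**
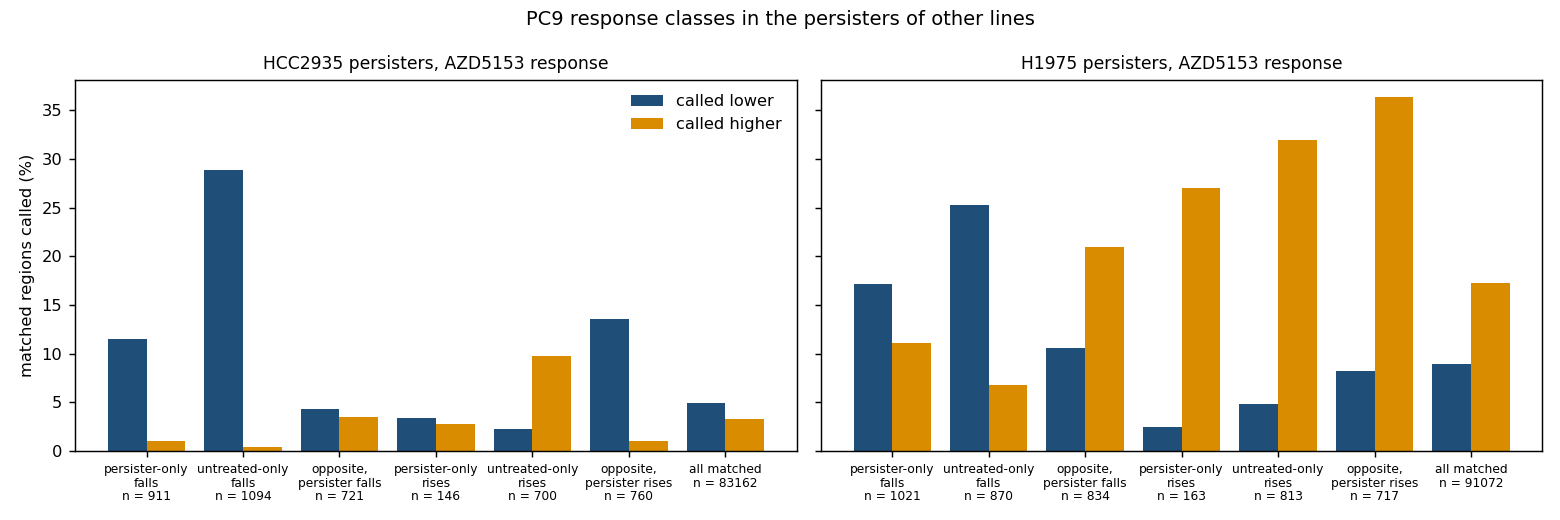
Share of regions matched to each PC9 class (y axis, percent) that was called lower (blue) or higher (orange) in the AZD5153 response of HCC2935 persisters (left) and H1975 persisters (right), with the number matched under each pair of bars and all matched regions at the right. The untreated-only falls have the largest share called lower in both lines, 28.9% and 25.3%.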

How the data were processed

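ATAC-seq counts per region were the values the authors deposited: whole-number read counts in 502962 consensus regions of 502 bases for PC9, not normalized, with a second deposited table that gives the gene symbol and annotation of 69565 regions. The build hg38 and the tools BWA 0.7.17, SAMtools 1.9, deepTools 3.4, MACS2 2.2.6, featureCounts 2.0.0 and ChIPseeker 1.29.1 are named in the submitters' processing notes, which give no roles. The extract protocol in the labels describes a histone ChIP, while titles and design name ATAC-seq, and the values are read as ATAC-seq. Depth was 3989287 to 5193390 counts per library, and intervals from counts cover counting error only.

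All 12 PC9 libraries were fitted with 1 mean per group (edgeR 4.0.16 in R 4.3.3, TMM factors, filterByExpr, quasi-likelihood F test), and p-values were adjusted by Benjamini-Hochberg over 126506 regions, with calls at an adjusted p under 0.05. CPM uses TMM-scaled library sizes, errors of fold changes are SE, and 95% intervals are normal intervals from it. H1975 and HCC2935 were fitted the same way. The procedure was also run on simulated counts of independent libraries. Their spread was set in advance, so that run does not address how alike the PC9 libraries of a group are. Replicate numbers do not pair the libraries: correlations of same-numbered deviations were -0.0098 to 0.0126.

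The named loci lie in the annotated table on chromosomes 1 to 22 or X, above the median abundance (1.93 log2 CPM), in 1 of the 3 classes, called also with libraries summed, with no overlap of libraries in the responses that define the class. Of 2130 such loci, the 4 with the largest interaction and distinct symbols per class and direction were taken, with the 3 genes of most regions, and for gene lists the region of smallest interaction p. For BET, P-TEFb and MYC genes the strongest promoter region was taken. Some loci that met these rules are not reported here. The 2 largest promoters within 1 kb per class and direction, and the AP-1 promoters, were added after the values were seen. Members and gene lists were chosen with earlier results of these data known. Alternatives were other scalings, filters and tools (DESeq2 1.42.0, limma 3.58.1 for loess offsets), summed libraries with the HCC2935 dispersion (0.0102; PC9 itself 9.77e-05), the replicate block and each library left out.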

Additional observations from a re-analysis of the deposited data

Results flagged for a closer look

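Each locus given here has a response to AZD5153 that differs between persisters and untreated cells by the interaction term of edgeR's quasi-likelihood test, and the values here are interaction log2 fold changes (persister minus untreated response). Groups of 3 libraries were not examined for outlying samples. Persister-only loci had 2.54 (LINC01607), 2.05 (KCNK5), 1.94 (SPOCK2), 1.93 (UAP1), -3.38 (HHIPL2), -3.28 (ITPR3), -2.93 (LINC-PINT) and -2.91 (CDK6-AS1), and promoters of this class 1.75 (LINC01991), 1.42 (ADGRB2), -2.47 (VAC14-AS1) and -2.27 (POR). Untreated-only loci had 4.50 (LINC00410), 4.26 (TCF7), 4.11 (MIR4300HG), 4.06 (VIT), -3.55 (LINC00667), -3.04 (CDK8), -3.0 (BTBD11) and -2.98 (CD59), and promoters 3.69 (INPP5K), 3.57 (SLC7A8) and -2.77 (FBXO42). The values of HHIPL2, LINC00410 and TCF7 rest on 3 counts in the lower group and are fitted values, not bounds. Opposite-sign loci had 4.74 (FOXN4), 4.31 (PARVA), 4.27 (CALML5), 4.27 (RNF165), -3.98 (LINC02517), -3.83 (FLJ32255), -3.81 (SCGN) and -3.78 (MAEA), and promoters 2.98 (KLF6), 2.74 (LINC01213), -3.05 (KRTAP4-6) and -2.95 (TMIGD3).

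Among the gene lists, the region with the smallest interaction p had 2.49 (HEXIM2, intron), 0.48 (MXD1), 0.90 (JDP2), -2.25 (CRIM1), 3.86 (EGFR), 1.93 (BCL2L1), 0.91 (CDH1), 2.30 (SFTPD), 0.57 (LIF), 2.03 (CCND3), 0.67 (ZNF682) and 0.73 (H2BC5). Of these, MXD1, JDP2, CDH1, LIF, ZNF682 and H2BC5 were not called with libraries summed. Among promoters of BET and P-TEFb genes were values of 0.46 (HEXIM2) and 0.47 (LARP7), neither of them called with libraries summed. The promoters with AP-1 letters had -1.52 (ODAPH), -1.51 (SCEL), -1.35 (ECM1), -1.31 (NDST1), -2.59 (CD59, second promoter region) and -1.42 (KSR1).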

How the results depend on the processing

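The 24 named loci and the 12 promoters kept the direction of the interaction and its call under every alternative that tested them, leaving out any library included. The rule for naming them asked for a call with libraries summed and for libraries without overlap, and then took the largest interactions. That they kept their calls was therefore largely fixed in advance. Counts of calls moved more. The number of interaction, persister response, untreated response, persister-only, untreated-only and opposite-sign regions, 17426, 28276, 32681, 1416, 2817 and 1943 as reported, became 7715, 12501, 18774, 615, 1519 and 537 with DESeq2, 6124, 10305, 17853, 532, 1447 and 308 with libraries summed, and 4468, 6590, 7025, 131, 269 and 598 with a minimum mean of 50 counts, which left 21207 regions to test. With the HCC2935 dispersion and all 12 libraries, the interaction gave 11133 calls and the opposite-sign class 968. Without a filter on low counts (502962 regions), the interaction gave 11329, the persister-only class 852 and the opposite-sign class 941. A minimum of 2-fold left 11728 persister and 16748 untreated calls, and class limits of 1.5-fold 1846 untreated-only regions. Leaving out 1 library gave 14627 to 15844 interaction, 21454 to 28389 persister, 26795 to 32736 untreated, 1111 to 1350 persister-only, 2341 to 2691 untreated-only and 1449 to 1677 opposite-sign regions. DESeq2 size factors, loess offsets, library size alone, the annotated regions alone and a fit of only the 2 groups compared stayed within 1.5 times for the results they apply to. A replicate block, for which the numbers give no basis, gave 17280 interaction, 28012 persister, 32471 untreated, 1410 persister-only, 2810 untreated-only and 1920 opposite-sign regions. Small changes at regions of few counts were not detectable at this depth.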

Other observations

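Other gene lists held further state-dependent regions, and the region of the cell cycle list was in the opposite-sign class. It is an intronic region 25767 bases before an annotated start of CCND3, the gene of the G1 cyclin D3 (chr6:41967575-41968076). With AZD5153 this region fell in untreated cells from 6.87, 5.07 and 5.16 to 4.61, 2.41 and 2.63 CPM. In persisters it rose from 5.06, 4.35 and 4.42 to 11.4, 10.0 and 11.1 CPM. The groups did not overlap in either state, and it was the strongest of 94 regions of cell cycle genes by interaction p (2.03 ± 0.32 on the log2 scale, adjusted p = 7.08e-08). JDP2 encodes a dimerization partner of JUN that represses AP-1, and its intronic region (chr14:75453221-75453722) fell in untreated cells from 79.6, 71.8 and 77.0 to 43.0, 49.9 and 43.6 CPM. In persisters the values were 66.6, 63.5 and 67.1 before and 72.1, 72.4 and 76.1 CPM after AZD5153, a change that was not called (adjusted p = 0.053), and the interaction of 0.90 ± 0.094 was not called with libraries summed (adjusted p = 0.0572). An intronic region 4756 bases before an annotated start of HEXIM2 (chr17:45155443-45155944) fell in untreated cells from 4.07, 3.45 and 5.16 to 0.961, 1.49 and 0.753 CPM. Persisters had 2.92, 2.48 and 1.61 and then 2.74, 3.41 and 4.07 CPM, which overlap.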
